A study of Homo sapiens with 20 samples.

Results

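Platelet granule and cytoskeleton genes were followed as a set of 10 human genes, chosen by symbol: PF4, PPBP, THBS1, VWF, MMRN1, F13A1, SRGN, TREML1, PLEK and TUBB1. Each was found once in each of the 3 deposited count tables, which hold 55093, 55093 and 34213 genes. The set was chosen with earlier results of these data known. Counts of members set beside shares over all genes are therefore a description only. The RNA came from HEL, a human erythroleukaemia line labelled as carrying the JAK2 V617F mutation, in 20 libraries of 10 groups of 2. In the BCI table, HEL cells received DMSO or BCI at 1 µM, which blocks the MAP kinase phosphatases DUSP1 and DUSP6, for 4 h or 48 h. In the BI-D1870 table they received DMSO, 10 µM of the RSK kinase inhibitor BI-D1870, or both compounds (10 µM BI-D1870 and 1 µM BCI) for 24 h. The persistent table holds parental HEL cells and 2 cell groups kept for long in a JAK2 inhibitor, ruxolitinib-persistent (RuxP) and fedratinib-persistent (FedP) cells. All groups share the mutant background of 1 line. How many separate persistent lines were raised, and at what drug dose, is not given in the sources used here, and BCI alone was not among the 24 h groups analysed here.

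Megakaryocytes, the bone marrow cells that shed platelets, load alpha granules with chemokines, adhesive proteins and clotting factors and keep a specialised tubulin ring under the platelet membrane. Many of these genes switch on late in megakaryocyte maturation, under factors of the GATA, ETS and NF-E2 families. HEL cells carry erythroid and megakaryocytic features together, so they make part of this program without forming platelets. JAK2 transmits cytokine signals in blood cells, and RSK kinases are activated by ERK.

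The members fall into 4 roles. PF4 and PPBP are granule chemokines, packed with the proteoglycan SRGN (serglycin), which binds basic cargo. THBS1 (thrombospondin 1), VWF (von Willebrand factor), MMRN1 (multimerin 1, a carrier of factor V) and F13A1 (the catalytic subunit of the fibrin cross-linking factor XIII) are adhesive or clotting proteins. TREML1 is a receptor of the alpha granule membrane that reaches the surface on activation. PLEK (pleckstrin) is the main protein kinase C substrate of platelets, and TUBB1 is the tubulin of the platelet ring.

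By GENCODE 29 on GRCh38, PF4 (ENSG00000163737, chr4:73981077-73982124) and PPBP (ENSG00000163736, chr4:73987038-73988197) are neighbours on the minus strand. THBS1 (ENSG00000137801) lies at chr15:39581079-39599466, plus strand, and VWF (ENSG00000110799) at chr12:5948874-6124770, minus strand. MMRN1 (ENSG00000138722) lies at chr4:89879532-89954629, plus strand, and F13A1 (ENSG00000124491) at chr6:6144085-6321013, minus strand. SRGN (ENSG00000122862) lies at chr10:69088106-69104811, plus strand, and TREML1 (ENSG00000161911) at chr6:41149342-41154337, minus strand. PLEK (ENSG00000115956) lies at chr2:68365173-68397453 and TUBB1 (ENSG00000101162) at chr20:59019254-59026654, both on the plus strand. All 10 are protein-coding. Exons of TUBB1 share 1188 bases, 34% of its exon length, with ATP5F1E on the opposite strand, and those of THBS1 share 448 bases (4.89%) with FSIP1 and 411 (4.49%) with AC037198.2. No source used here states whether counting used strand, and reads of such stretches cannot be assigned to 1 gene. PF4V1, a near copy of PF4, held 0 to 8 counts in every library.

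Promoters are shown for 3 members that fell together by over 10-fold in persistent cells, and for MMRN1, which fell less. RefSeq (GRCh38.p14) promoters were held for 7 of the 10 members; PF4, VWF and SRGN were the others. The 250 bases before the RefSeq start are printed 5′ to 3′ on the strand of the gene, with motif matches in capitals: GATA (the runs AGATAA or else AGATAG, and likewise TGATAA or else TGATAG), ETS (AGGAAG or else CGGAAG) and AP-1/NF-E2 (TGANTCA), each read on both strands.
PPBP: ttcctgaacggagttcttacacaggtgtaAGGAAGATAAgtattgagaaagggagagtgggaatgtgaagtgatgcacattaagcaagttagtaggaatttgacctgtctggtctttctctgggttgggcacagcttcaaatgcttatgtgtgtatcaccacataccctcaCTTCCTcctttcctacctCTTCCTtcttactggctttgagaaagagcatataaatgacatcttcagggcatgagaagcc
TREML1: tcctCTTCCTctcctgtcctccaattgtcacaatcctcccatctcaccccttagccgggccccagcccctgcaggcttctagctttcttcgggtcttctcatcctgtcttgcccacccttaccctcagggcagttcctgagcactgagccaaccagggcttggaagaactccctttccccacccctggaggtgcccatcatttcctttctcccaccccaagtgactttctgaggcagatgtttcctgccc
THBS1: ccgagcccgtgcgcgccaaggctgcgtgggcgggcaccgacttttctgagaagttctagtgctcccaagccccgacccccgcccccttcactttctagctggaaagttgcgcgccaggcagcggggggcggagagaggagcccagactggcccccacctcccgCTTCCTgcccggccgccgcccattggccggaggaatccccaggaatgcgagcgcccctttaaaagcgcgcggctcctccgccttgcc
MMRN1: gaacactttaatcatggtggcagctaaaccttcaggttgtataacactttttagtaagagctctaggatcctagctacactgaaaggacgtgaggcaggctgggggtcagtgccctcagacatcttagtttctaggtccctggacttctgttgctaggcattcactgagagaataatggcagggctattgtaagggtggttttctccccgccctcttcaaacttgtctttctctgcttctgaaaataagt
These windows are chr4:73988191-73988440 (PPBP, minus strand), chr6:41154350-41154599 (TREML1, minus strand), chr15:39580829-39581078 (THBS1, plus strand) and chr4:89879261-89879510 (MMRN1, plus strand). The PPBP window held 1 GATA and 3 ETS matches, of which 1 ETS match overlaps the GATA match. TREML1 and THBS1 held 1 ETS match each and MMRN1 none. Of the windows not printed, F13A1 held 1 ETS match and PLEK and TUBB1 none, and no member held an AP-1/NF-E2 match. Among 27305 RefSeq promoters, read over the same 250 bases, 22.9% held a GATA match, 41% an ETS match and 6.6% an AP-1/NF-E2 match. A match is a run of letters and shows no binding.

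Libraries held 63916850 to 84452743 counts in the BCI table, 54141164 to 70128404 in the BI-D1870 table and 51799814 to 79755715 in the persistent table. CPM scale the counts by the TMM size of each library, and RPKM are CPM per kilobase of exon. Of the members, 9, 8 and 9 had enough counts to be tested in the 3 tables. Tables were fitted separately with edgeR's quasi-likelihood test, and a gene was called at a Benjamini-Hochberg adjusted p under 0.05 over all genes tested. Variation between replicates (edgeR's biological coefficient) was 13.3%, 5.01% and 26.9%, and the persistent table was thus the least precise. No source used here says whether replicates came from separate cultures, and the p-values then cover the spread of these libraries alone, which may be technical. The 2 parental libraries stood furthest apart of all replicate pairs. Of 7 megakaryocyte markers, 6 had counts in every group, with ITGA2B at 761.8 to 2309 CPM over the libraries, and GP1BB was listed at 0 throughout. In bulk RNA, fewer cells of a type and less RNA per cell cannot be told apart.

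Per exon length, PLEK was the most abundant member in all 4 control groups. Its RPKM were 188.7 ± 0.509 in DMSO at 4 h, 228.5 ± 13 in DMSO at 48 h, 227.6 ± 0.119 in DMSO at 24 h and 301.3 ± 7.69 in parental cells (mean ± SD, n = 2, here and below). The 3 tables were normalised separately, so levels across them stand side by side only. SRGN came next in the DMSO groups (34.2 ± 1.13 RPKM at 4 h, 34.5 ± 11.3 at 48 h and 41.3 ± 2.89 at 24 h), while in parental cells PF4 (73.3 ± 23) lay above SRGN (33.2 ± 7.25).

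The middle of the order held PF4, MMRN1, TUBB1, THBS1 and TREML1. In DMSO at 24 h their RPKM were 13.3 ± 0.944, 10.1 ± 0.194, 9.06 ± 0.186, 3.79 ± 0.35 and 4.04 ± 0.364. TREML1 and THBS1 there differed by less than the sum of their SDs, as did TUBB1 (20.3 ± 2.56) and MMRN1 (16.8 ± 4.64) in parental cells. PPBP lay below them in DMSO at 24 h (0.939 ± 0.226 RPKM) and was at 8.13 ± 2.45 in parental cells, where it did not differ beyond the summed SDs from TREML1 (6.34 ± 2.54), nor TREML1 from THBS1 (5.61 ± 1.07). In DMSO at 4 h the order was PF4 (7.37 ± 0.0483 RPKM), MMRN1 (5.18 ± 0.413), THBS1 (3.23 ± 0.316), TUBB1 (2.72 ± 0.286), TREML1 (1.27 ± 0.369) and PPBP (1.06 ± 0.226). THBS1 and TUBB1 there, and TREML1 and PPBP, lay closer than the sum of their SDs. In DMSO at 48 h the order was PF4 (10.5 ± 5.37 RPKM), MMRN1 (6.83 ± 3.61), TUBB1 (4.8 ± 0.392), TREML1 (2.09 ± 0.958), PPBP (1.41 ± 0.273) and THBS1 (0.859 ± 0.00151). By the same measure PF4 and MMRN1, MMRN1 and TUBB1, and TREML1 and PPBP did not differ there.

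VWF and F13A1 were close to or under the detection limit. VWF held 2 to 27 counts per library, or 0.0422 ± 0.00427 RPKM in parental cells, its highest group. F13A1 held 0 to 10 counts and was tested in no table. Its highest library was a parental one (0.194 CPM), and 10 of the 20 libraries held none. A count of 0 allows up to 3 counts, or 0.0352 to 0.0604 CPM depending on the library, for counting error only. Neither gene gives a usable change here: F13A1 was not tested, and VWF was not tested in the BI-D1870 table and passed in no other comparison.

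**Figure D1:**
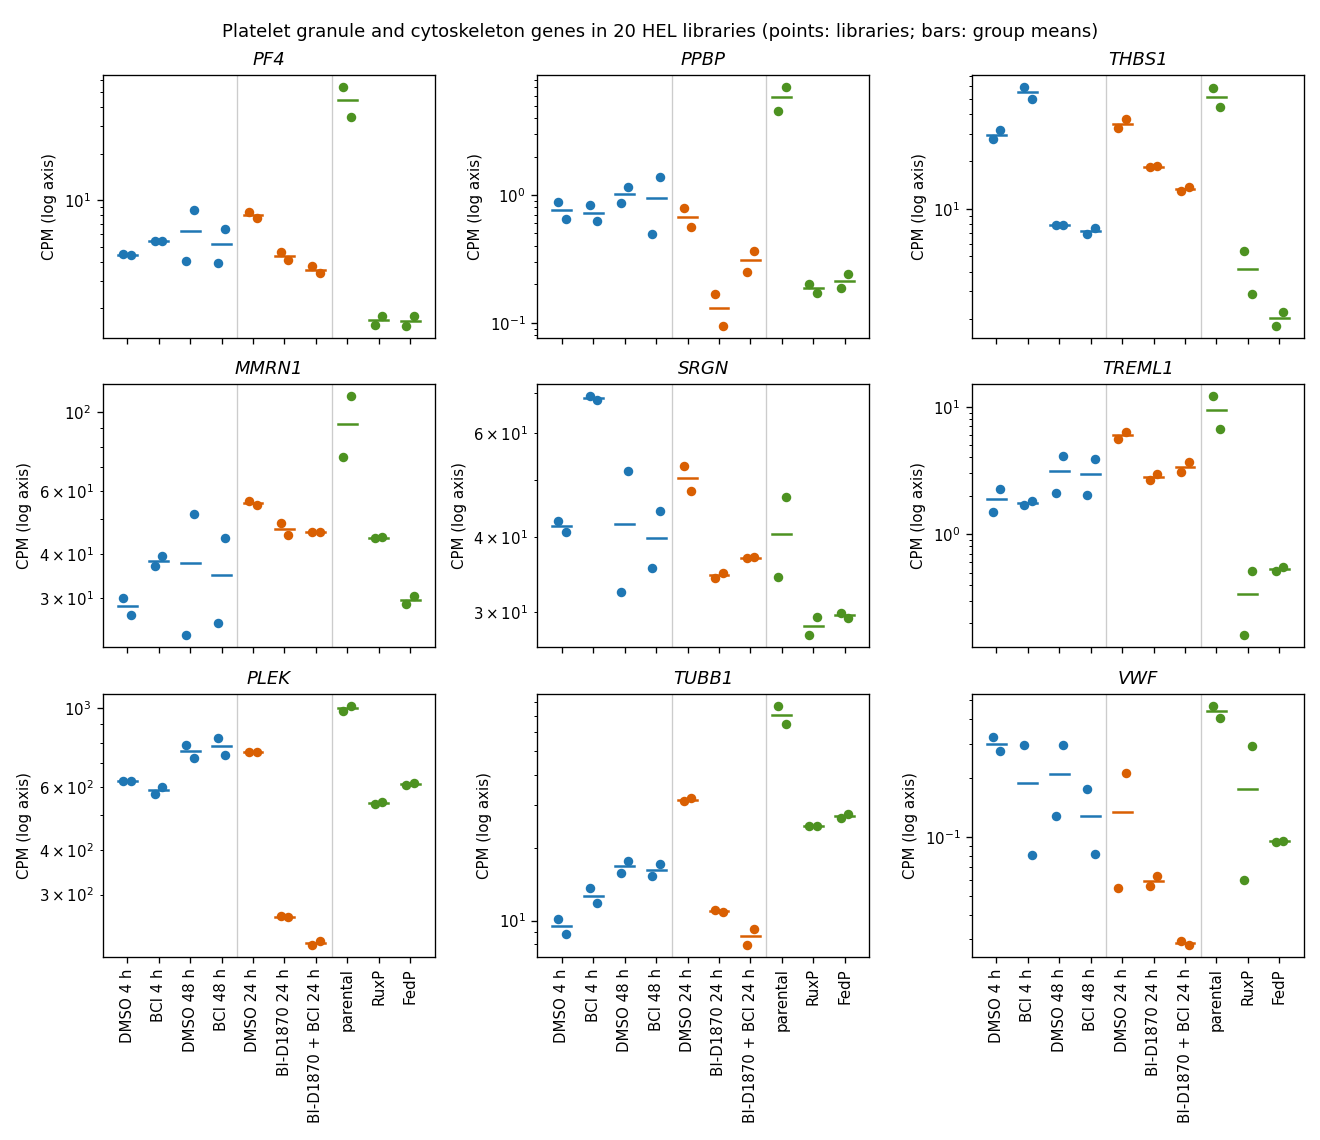
CPM (log axis) of 9 members in all 20 libraries; points are libraries, bars are means of 2, and colours and grey lines separate the 3 tables, which were normalised separately. Parental libraries of PF4, PPBP, THBS1 and TREML1 lie far above all RuxP and FedP libraries, PLEK and TUBB1 drop under BI-D1870, and THBS1 and SRGN rise under BCI at 4 h.

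The first question was how far these genes differed between parental cells and cells kept for long in a JAK2 inhibitor. The cause of the differences was not tested. PF4, PPBP, THBS1 and TREML1 fell by 12.4 to 31-fold in RuxP cells and by 17.6 to 27-fold in FedP cells, and MMRN1, TUBB1 and PLEK fell by 1.63 to 3.12-fold. Of 9 members tested, 7 fell, 0 rose and 2 did not pass in RuxP cells, where 2.17% of all genes fell, 4.28% rose and 6.44% were called in either direction. In FedP cells the count was also 7, 0 and 2, where 2.79% of all genes fell, 3.84% rose and 6.63% were called. Both comparisons share the parental libraries, so the counts are not independent of each other. The median log2 fold change of the members was -1.53 in RuxP and -2.19 in FedP, beside -0.041 and 0.011 over all genes tested.

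The chemokine PF4 stood at 54.1 and 34.5 CPM in the parental libraries, at 1.57 and 1.78 in RuxP and at 1.54 and 1.77 in FedP. Both parental libraries lay far above all 4 persistent ones. The log2 fold change was -4.72 (SE 0.295, edgeR adjusted p = 0.003) in RuxP and -4.74 (SE 0.293, adjusted p = 0.0027) in FedP. PPBP, the precursor of several chemokine forms, stood at 4.58 and 7.05 CPM in parental cells, at 0.201 and 0.171 in RuxP and at 0.188 and 0.24 in FedP. Its persistent libraries rested on 10 to 20 counts each and did not overlap with the parental ones. PPBP fell by 4.95 on the log2 scale in RuxP (SE 0.425, edgeR adjusted p = 0.0044) and by 4.75 in FedP (SE 0.409, adjusted p = 0.0046).

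THBS1, an adhesive protein that binds CD36 and CD47, stood at 58.3 and 44.5 CPM in parental cells, at 5.43 and 2.86 in RuxP and at 1.81 and 2.22 in FedP. The groups did not overlap, and both FedP libraries lay below both RuxP ones. Log2 fold changes were -3.64 (SE 0.358, edgeR adjusted p = 0.0051) in RuxP and -4.68 (SE 0.375, adjusted p = 0.0044) in FedP. MMRN1, stored in alpha granules with factor V, stood at 74.6 and 110.8 CPM in parental cells, at 44.2 and 44.6 in RuxP and at 28.9 and 30.5 in FedP. Parental libraries were again the high ones and FedP libraries the low ones, with no overlap. MMRN1 fell by 1.06 in RuxP (SE 0.216, edgeR adjusted p = 0.042) and by 1.64 in FedP (SE 0.219, adjusted p = 0.013) on the log2 scale.

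TREML1 stood at 12.1 and 6.74 CPM in parental cells, at 0.161 and 0.513 in RuxP and at 0.516 and 0.551 in FedP. The lower RuxP library held 8 counts, and all 4 persistent libraries lay far below both parental ones. Its log2 fold change was -4.77 (SE 0.581, edgeR adjusted p = 0.0091) in RuxP and -4.14 (SE 0.547, adjusted p = 0.013) in FedP. SRGN, which retains basic proteins in granules, did not pass. It stood at 34.3 and 46.8 CPM in parental cells, at 27.4 and 29.4 in RuxP and at 29.9 and 29.3 in FedP, so both parental libraries lay above all 4 persistent ones, RuxP and FedP overlapped, and the parental pair was wide. Log2 fold changes of SRGN were -0.51 (SE 0.193, edgeR adjusted p = 0.18) and -0.45 (SE 0.193, adjusted p = 0.21), and without parental replicate 1 both passed (-0.71, adjusted p = 0.029, and -0.69, adjusted p = 0.015).

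The cytoskeletal members, like MMRN1, fell by less than PF4, PPBP, THBS1 and TREML1. TUBB1 stood at 77.4 and 64.7 CPM in parental cells, at 24.6 and 24.7 in RuxP and at 26.6 and 27.5 in FedP, with log2 fold changes of -1.53 (SE 0.162, edgeR adjusted p = 0.0064) and -1.39 (SE 0.161, adjusted p = 0.0093). ATP5F1E, which shares exon bases with it, did not pass (-0.09 and 0.04). PLEK stood at 980.6 and 1017 CPM in parental cells, at 539.0 and 543.8 in RuxP and at 609.1 and 615.5 in FedP. Each group was tight and none overlapped. PLEK fell by 0.88 in RuxP (SE 0.129, edgeR adjusted p = 0.016) and by 0.71 in FedP (SE 0.129, adjusted p = 0.032) on the log2 scale, the smallest fold changes of the 7 members called.

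The calls rested on few libraries. Without RuxP replicate 1, only PF4, PPBP and THBS1 passed in RuxP (edgeR adjusted p = 0.045 to 0.047), with TREML1 at -4.19 (0.057), TUBB1 at -1.53 (0.073), PLEK at -0.88 (0.15) and MMRN1 at -1.05 (0.23). Without RuxP replicate 2, MMRN1 and PLEK did not pass (0.12 and 0.081), and TREML1 was at -5.85. Without FedP replicate 1 or 2, the same 3 genes alone passed in FedP (0.015 to 0.047), while TREML1 (0.085 at most), TUBB1 (0.14), MMRN1 (0.13) and PLEK (0.4) kept their direction. With only the groups compared in the fit, MMRN1 (0.12) and PLEK (0.095) did not pass in RuxP, nor PLEK (0.088) in FedP. No member passed between FedP and RuxP with edgeR as fitted to the whole table or with limma-voom. In that edgeR fit 2 members had an unadjusted p under 0.05, and 1.39% of all genes were called. THBS1 was at -1.04 (SE 0.339, edgeR adjusted p = 0.12) and passed in DESeq2 (-1.07, adjusted p = 0.02) and in edgeR with no low-count filter (-1.04, adjusted p = 0.032). MMRN1 was at -0.58 (SE 0.214, edgeR adjusted p = 0.13) and passed with only the groups compared (-0.62, adjusted p = 0.013).

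**Figure D2:**
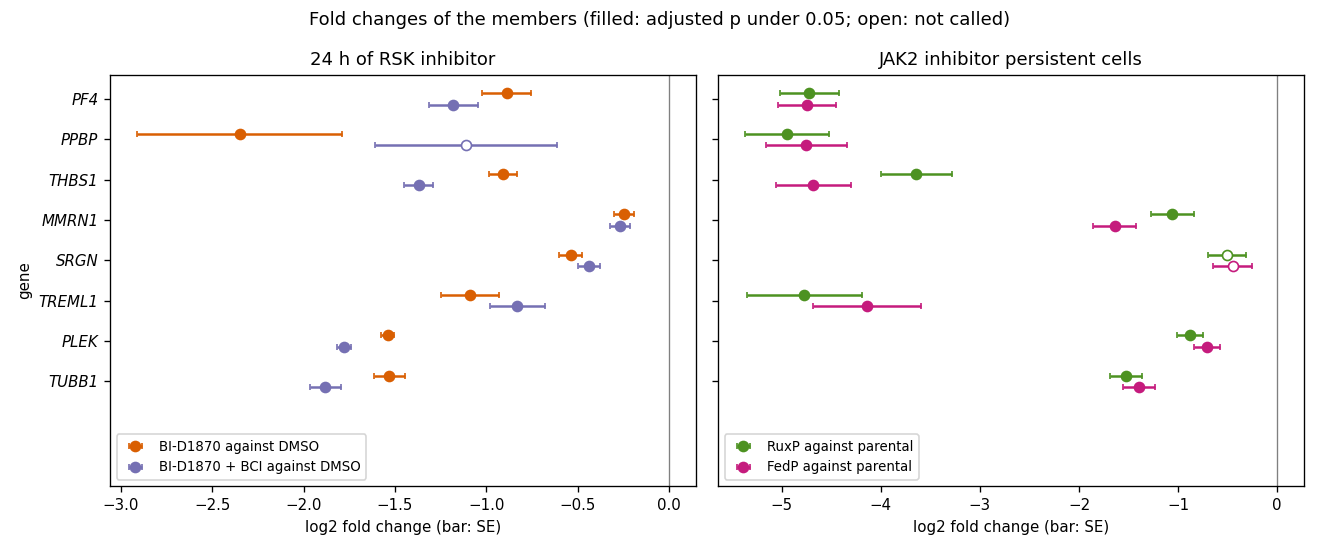
Log2 fold changes (x axis; bars are SE) of the 8 members tested in both tables, under BI-D1870 without or with BCI at 24 h (left) and in persistent cells (right); filled points have an adjusted p under 0.05. On the left PLEK and TUBB1 are far from 0 with narrow bars, and on the right PF4, PPBP, THBS1 and TREML1 lie between -3.64 and -4.95, while SRGN is open in both persistent groups.

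Other platelet genes were taken from lists by function. Over all genes, 2.17% fell and 4.28% rose in RuxP, and 2.79% fell and 3.84% rose in FedP. Of 29 surface receptor genes tested, 14 fell, 2 rose and 13 did not pass in RuxP (median log2 -1.05), and 14, 1 and 14 in FedP (median -0.82). The fibrinogen receptor subunit ITGB3 had log2 fold changes of -2.62 in RuxP and -1.95 in FedP, the adhesion molecule PECAM1 of -1.78 and -2.49, and GP5 of the von Willebrand factor receptor of -2.79 and -1.85. GP1BA, the subunit that binds von Willebrand factor, was at -2.39 in FedP. Of 21 other granule cargo genes, 4 fell and 1 rose in RuxP (median -0.58), and 3 fell and 0 rose in FedP (median -0.48). The metalloproteinase inhibitor TIMP3 was at -1.02 and -1.35, and the anticoagulant PROS1 was at 1.30 in RuxP. Of 35 cytoskeletal genes, 7 fell in RuxP (median -0.49) and 3 in FedP (median -0.38), and 0 rose in either. MYLK, the myosin light chain kinase, was at -1.60 and -2.04, and VCL (vinculin) at -1.08 and -0.76.

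Of genes that build and release granules, where shares over all genes were 6.44% and 6.63%, 1 of 32 was called in RuxP (STX11, a fusion protein of granule release, which fell, at -1.90), and 1 fell and 1 rose in FedP (LYST at -1.14 and the nucleotide transporter SLC17A9 at 1.84), with medians of -0.28 and -0.04. Of 24 transcription factor genes, 4 fell and 2 rose in RuxP (median -0.63), with the GATA1 partner ZFPM1 at -2.38, MEIS1 at -1.11, ERG at 1.80 and MECOM at 1.34. In FedP 5 fell and 1 rose (median -0.09), with ETS1 at -1.26, MEF2C at -1.21 and MEIS1 at -0.95. Of 27 signalling genes, 3 fell and 2 rose in each (medians -0.21 and -0.29), with PDE5A at -2.14 and -1.99, SRC at -2.15 and -1.38, and PLA2G4A at 0.97 and 1.10. The 2 parental libraries lay far apart for ZFPM1 (224.2 ± 140.5 CPM), SRC (87.2 ± 36.4), STX11 (38.2 ± 16.1) and SLC17A9 (20.7 ± 8.48). They were close for MECOM (22.6 ± 0.0753). ZFPM1 in RuxP (edgeR adjusted p = 0.04) and SRC in FedP (0.049) passed narrowly.

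Lineage markers moved beside the members. Summed megakaryocyte markers ran from 2686 to 4037 CPM in parental libraries, from 1256 to 1558 in RuxP and from 2435 to 2510 in FedP. All 7 of them also stand among the surface receptors. Of the 6 tested, 3 fell and 0 rose in RuxP, where 2.17% of all genes fell. In FedP 4 fell and 0 rose, where 2.79% of all genes fell. Summed erythroid markers (7 of 7 with counts) ran from 1087 to 1855, from 492.2 to 592.8 and from 1112 to 1153. Summed mast cell and basophil markers (6 of 6 with counts) were higher in persistent cells, at 584.7 to 594.0 in parental, 1006 to 1058 in RuxP and 1141 to 1160 in FedP. Of these 6 markers, 3 rose in RuxP and 2 in FedP, and 0 fell. HDC (269.8 to 735.6 CPM over the libraries) and FCER1A (254.8 to 428.0) made up most of the sum. Endothelial markers, of interest because VWF and MMRN1 are also endothelial, ran from 550.0 to 798.9, 347.0 to 406.5 and 522.0 to 554.0, with CLDN5 at 0 in FedP. Monocyte markers were at 54.9 to 63 CPM in all, with FCN1 at 0 in parental cells, and fibroblast markers at 0.0201 to 1.2, with LUM at 0 in all 3 groups. The part of these shifts in the members' falls was not tested.

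The second question was what the RSK inhibitor BI-D1870 did within 24 h. Whether its changes ran through RSK was not tested. BI-D1870 lowered every member tested, 8 of 8, where 24.3% of all genes fell and 47.1% were called in either direction. The largest fold was that of PPBP (5.1-fold), and PLEK and TUBB1 fell by 2.9 and 2.89-fold. The median log2 fold change of the members was -1.0, beside -0.014 over all genes. In BI-D1870 with BCI, 7 fell and PPBP did not pass, where again 24.3% of all genes fell and 46.8% were called, with a median of -1.15 beside -0.005. These comparisons share the DMSO libraries.

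PF4 stood at 8.44 and 7.63 CPM in DMSO, at 4.59 and 4.11 under BI-D1870 and at 3.75 and 3.36 with both compounds. Each step down was free of overlap. PF4 fell by 0.89 (SE 0.135, edgeR adjusted p = 1.7e-05) with BI-D1870 and by 1.18 (SE 0.135, adjusted p = 4.6e-07) with both, on the log2 scale. PPBP stood at 0.785 and 0.557 CPM in DMSO, at 0.168 and 0.0945 under BI-D1870 and at 0.25 and 0.365 with both. Its counts were low, 6 and 9 under BI-D1870, and DMSO was the high group. The log2 fold change was -2.35 (SE 0.563, edgeR adjusted p = 0.0017) with BI-D1870 and -1.11 (SE 0.497, adjusted p = 0.075) with both, and the latter passed in limma-voom (-1.10, adjusted p = 0.049). The chemokine carrier SRGN stood at 52.8 and 47.8 CPM, at 34.2 and 34.9, and at 36.9 and 37.1. Both treated groups lay below DMSO, at -0.54 (SE 0.0602, edgeR adjusted p = 3.1e-07) and -0.44 (SE 0.0594, adjusted p = 3.4e-06).

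THBS1 stood at 32.4 and 36.9 CPM in DMSO, at 18.3 and 18.6 under BI-D1870 and at 13 and 13.8 with both. The 3 groups were stacked with no overlap. THBS1 fell by 0.91 (SE 0.0773, edgeR adjusted p = 7.6e-09) and by 1.37 (SE 0.0784, adjusted p = 2.4e-11) on the log2 scale. FSIP1, which shares exon bases with it, was also lower with both compounds (-0.76, adjusted p = 0.014), and its share in the THBS1 value was not tested. MMRN1 moved least, from 56.3 and 54.8 CPM to 48.7 and 45.1, and to 46.1 and 45.9 with both. Its log2 fold changes were -0.25 (SE 0.0548, edgeR adjusted p = 9.6e-04) and -0.27 (SE 0.0544, adjusted p = 3.1e-04), and without BI-D1870 replicate 2 the first did not pass (-0.16, adjusted p = 0.067). TREML1 stood at 5.61 and 6.37 CPM, at 2.68 and 2.96, and at 3.1 and 3.65, where DMSO was again apart. TREML1 fell by 1.09 (SE 0.157, edgeR adjusted p = 9.6e-06) and by 0.83 (SE 0.153, adjusted p = 1.5e-04).

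PLEK, the platelet protein kinase C substrate, stood at 754.0 and 754.6 CPM in DMSO, at 260.8 and 258.7 under BI-D1870 and at 217.0 and 222.7 with both. Replicates nearly coincided, and the gaps between groups were far wider. PLEK fell by 1.54 (SE 0.0373, edgeR adjusted p = 1.1e-16) and by 1.78 (SE 0.0376, adjusted p = 1.2e-17) on the log2 scale. TUBB1 stood at 31.2 and 32.1 CPM, at 11.1 and 10.9, and at 7.96 and 9.28. It fell by 1.53 (SE 0.0856, edgeR adjusted p = 1.9e-11) and by 1.88 (SE 0.0864, adjusted p = 1.0e-12). ATP5F1E on the other strand moved the other way under BI-D1870 (0.23, adjusted p = 3.7e-04) and was at -0.02 with both.

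Adding BCI to BI-D1870 lowered THBS1, PLEK and TUBB1 further. These were 3 of 8 members tested, where 2.48% of all genes fell and 4.71% were called, and no member rose. THBS1 was at -0.46 (SE 0.0806, edgeR adjusted p = 0.0016), PLEK at -0.24 (SE 0.037, adjusted p = 5.4e-04) and TUBB1 at -0.35 (SE 0.0908, adjusted p = 0.032), from the library values given above. ATP5F1E also fell here (-0.25, adjusted p = 0.003), and its share in the TUBB1 value was not tested. TUBB1 did not pass in limma-voom (adjusted p = 0.062) or without BI-D1870 replicate 1 (0.2), BI-D1870 replicate 2 (0.11) or replicate 1 of both compounds (0.3). PF4 was at -0.29 (SE 0.14, edgeR adjusted p = 0.31), PPBP at 1.24 (SE 0.585, adjusted p = 0.3) and TREML1 at 0.26 (SE 0.161, adjusted p = 0.47), none of which passed.

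Platelet genes outside the set were called in both directions under BI-D1870. Over all genes tested, 24.3% fell, 22.8% rose and 47.1% were called. With a stricter filter for low counts, 8579 of 13521 genes were called. Of 28 surface receptor genes, 21 fell, 5 rose and 2 did not pass (median log2 -0.63). GP5 was at -2.72, the granule adhesion receptor SELP at -2.68, CD226 at -1.95 and CD84 at -1.93. Of 27 signalling genes, 19 fell and 6 rose (median -0.39), with RGS18 at -2.02, the adaptor FYB1 at -1.57, the phospholipase PLA2G4A at -1.26 and the thromboxane synthase TBXAS1 at -1.03. Of 21 other cargo genes, 9 fell and 5 rose (median -0.41). ANGPT1, the angiopoietin of platelets, was at -4.54 and VEGFA at -1.38, while APLP2 was at 1.15 and TGFB1 at 0.93.

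Of 35 cytoskeletal genes, 18 fell and 10 rose under BI-D1870 (median -0.1), where 24.3% of all genes fell and 22.8% rose. The tubulins TUBB2A (1.54) and TUBB4B (1.34) rose where TUBB1 fell, CTTN (cortactin) was at 1.27 and MYLK at -1.33. Of 31 granule biogenesis and release genes, 11 fell and 10 rose (median -0.06), with SLC17A9 at -1.28, the granule GTPase RAB27B at -1.02, ABCC4 at -0.91 and STX11 at -0.79. Of 24 transcription factor genes, 14 fell and 7 rose (median -0.2), with LMO2 at -1.21, ETS1 at -1.05, ETV6 at -0.92 and MEF2C at -0.82. With both compounds the counts that fell and rose were 19 and 5 (receptors), 20 and 5 (signalling), 9 and 6 (cargo), 18 and 9 (cytoskeleton), 12 and 9 (biogenesis) and 15 and 6 (factors). Over all genes, 24.3% fell and 22.6% rose with both.

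Summed megakaryocyte markers ran from 1884 to 1887 CPM in DMSO, from 1592 to 1594 under BI-D1870 and from 1613 to 1699 with both. Erythroid markers ran from 3474 to 3607, 2667 to 2788 and 1569 to 1820. Mast cell markers ran from 694.2 to 701.2, 409.0 to 409.1 and 381.1 to 384.1, and endothelial ones from 426.7 to 441.8, 357.7 to 365.4 and 408.6 to 437.0. Of the 8 endothelial markers 6 fell and 0 rose under BI-D1870, and 5 fell and 2 rose with both. The largest called changes at a mean of 4 CPM or more were falls. These were NOS3 at -2.16 and -1.63, ROBO4 at -1.72 and -1.16 and CDH5 at -1.67 and -1.07. TIE1, at 296.7 to 359.1 CPM over these libraries, made up most of the endothelial sum. From BI-D1870 to both compounds, 4 of the 8 rose and 0 fell, where 2.22% of all genes rose and 2.48% fell. The 4 were CDH5 (0.60), ROBO4 (0.56), KDR (0.25) and TIE1 (0.21). These lists had counts for all genes but GP1BB. Of the 6 other megakaryocyte markers, 5 fell and 1 rose under BI-D1870, and 4 fell and 1 rose with both. Under BI-D1870, GP9 was at -1.86, GP6 at -1.08, GP1BA at -0.62 and ITGB3 at 0.71. ITGA2B, at 1172 to 1356 CPM over these libraries, made up most of the megakaryocyte sum. Over all genes, 24.3% fell and 22.8% rose under BI-D1870, and 24.3% fell and 22.6% rose with both. Monocyte markers stood at 27.2 to 32.2 CPM, with FCN1 at 0 in all 3 groups, and fibroblast markers at 0.318 to 1.08. The part of these shifts in the members' falls was not tested.

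**Figure D3:**
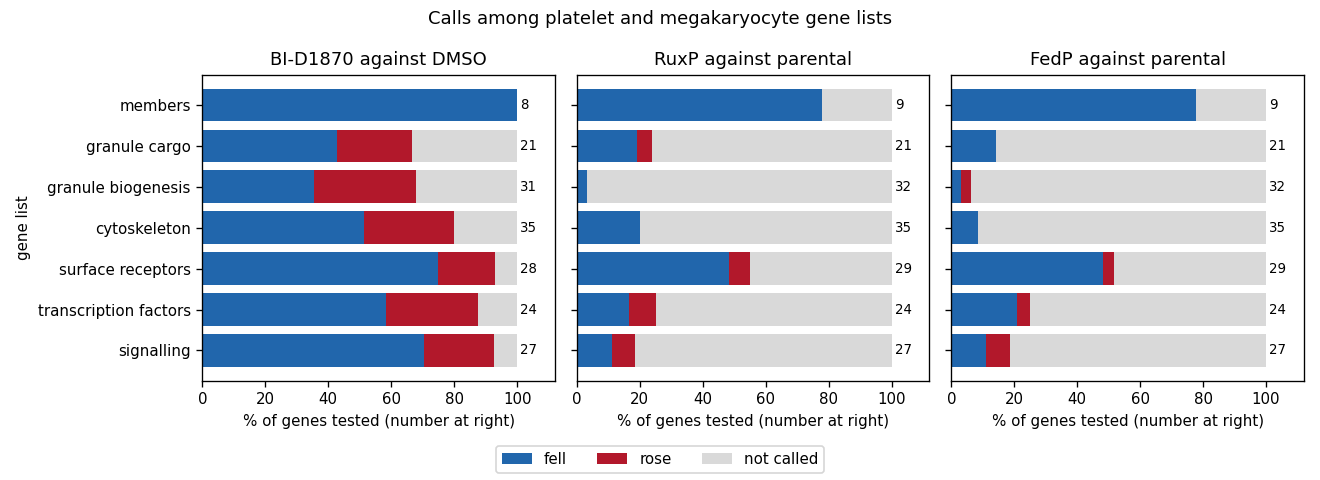
Share of the genes tested in each list (x axis, percent; the number tested at the right of each bar) that fell, rose or were not called. The members fell in 8 of 8 under BI-D1870 and 7 of 9 in each persistent group. Of the granule biogenesis genes, 1 or 2 of 32 were called in persistent cells, and the rest of their bars show genes not called.

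The third question was what BCI did alone. At 4 h it raised THBS1 by 1.85-fold and SRGN by 1.64-fold. These were 2 of 9 members tested, 0 fell, while 4.8% of all genes rose, 5.94% fell and 10.7% were called. The median log2 fold change of the members was 0.29, beside 0.02 over all genes. THBS1 stood at 27.5 and 31.6 CPM in DMSO and at 59.4 and 49.9 with BCI, so both BCI libraries lay above both DMSO ones. The log2 fold change was 0.89 (SE 0.116, edgeR adjusted p = 0.0016). SRGN stood at 42.7 and 40.8 CPM in DMSO and at 69.1 and 68.1 with BCI, again apart, at 0.72 (SE 0.189, adjusted p = 0.041). The SRGN call was lost without any 1 of the 4 libraries compared (DMSO or BCI at 4 h, replicate 1 or 2; edgeR adjusted p up to 0.24), and the THBS1 call was not.

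TUBB1 stood at 10.2 and 8.8 CPM in DMSO and at 13.6 and 11.8 with BCI at 4 h. It lay higher with no overlap (log2 0.42, SE 0.132), short of the threshold in edgeR (adjusted p = 0.08) and past it in DESeq2. PF4 (4.47 and 4.43 against 5.44 and 5.47 CPM with BCI) and MMRN1 (30.1 and 26.9 against 36.9 and 39.5) also lay higher without overlap, at 0.29 (SE 0.333, edgeR adjusted p = 0.67) and 0.42 (SE 0.33, adjusted p = 0.51). PLEK (624.1 and 626.5 against 573.0 and 602.1) lay lower, at -0.09 (SE 0.0798, adjusted p = 0.57). PF4, MMRN1 and PLEK did not pass in edgeR as fitted to the whole table. How many of all genes lay apart in this way was not counted, so the lack of overlap is a description only. PPBP, TREML1 and VWF overlapped, at -0.06, -0.10 and -0.66, and did not pass.

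At 48 h none of the 9 members tested passed with edgeR, DESeq2 or limma-voom, and 0 had an unadjusted p under 0.05 in edgeR. Of all genes 0% were called there. THBS1 stood at 7.85 and 7.87 CPM in DMSO and at 6.88 and 7.5 with BCI (log2 -0.13, SE 0.122, edgeR adjusted p = 1). SRGN stood at 32.4 and 51.8 against 35.5 and 44.3, PLEK at 787.8 and 726.9 against 824.9 and 738.4, and TUBB1 at 15.8 and 17.7 against 15.3 and 17.1, all overlapping. The libraries numbered 2 were the higher of their pair in both arms for PF4 (8.63 over 4.05 in DMSO, 6.53 over 3.93 with BCI) and MMRN1 (51.7 over 23.6, 44.2 over 25.6). The same held for TREML1 (4.11 over 2.1, 3.91 over 2.02), PPBP (1.15 over 0.871, 1.39 over 0.491) and SRGN, and by less for THBS1 and TUBB1.

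The BCI response itself differed between times for THBS1. The 48 h minus 4 h difference was -1.02 on the log2 scale (SE 0.168, edgeR adjusted p = 0.014), making it 1 of 9 members tested where 1.37% of all genes had a lower response at 48 h and 3.46% a different one. It did not pass without DMSO 4 h replicate 1 (0.1) or 2 (0.068) or BCI 4 h replicate 1 (0.1). For SRGN the difference was -0.79 (SE 0.266, edgeR adjusted p = 0.16) and for TUBB1 -0.47 (SE 0.184, adjusted p = 0.23).

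Time in DMSO moved members too, between 48 h and 4 h. THBS1 fell by 1.91 on the log2 scale (SE 0.122, edgeR adjusted p = 4.4e-05), from 27.5 and 31.6 to 7.85 and 7.87 CPM. TUBB1 rose by 0.82 (SE 0.132, adjusted p = 0.0021) and PLEK by 0.28 (SE 0.0798, adjusted p = 0.03). Thus 2 of 9 rose and 1 fell, where 13.5% and 13.2% of all genes did. PLEK did not pass with only these groups in the fit (0.051) or without DMSO 4 h replicate 1 (0.16), DMSO 4 h replicate 2 (0.15) or DMSO 48 h replicate 1 (0.096). FSIP1, which shares exon bases with THBS1, also fell (-1.08, adjusted p = 0.037), from 0.94 and 0.663 to 0.371 and 0.387 CPM. Its share in the THBS1 value was not tested.

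**Figure D4:**
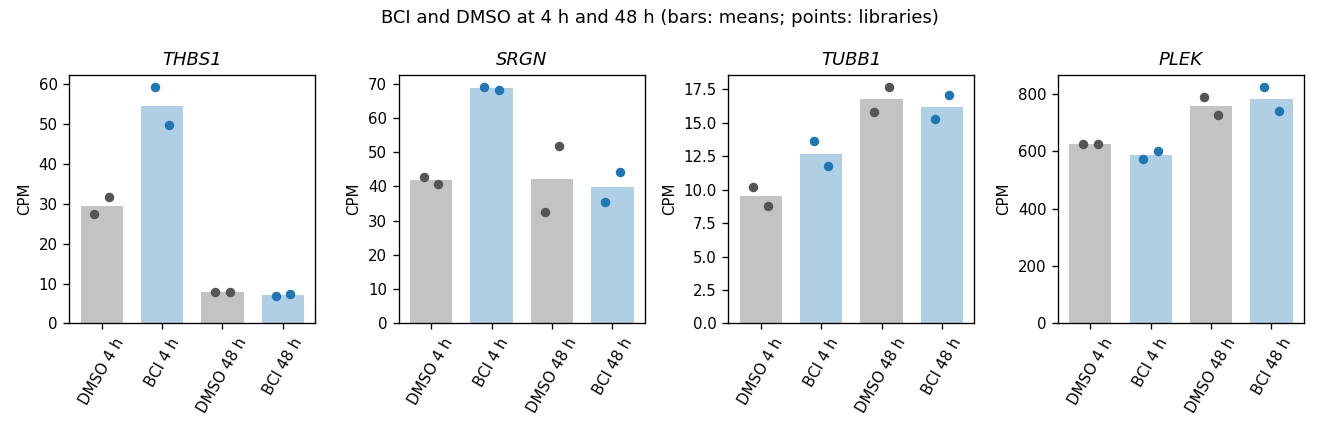
CPM of THBS1, SRGN, TUBB1 and PLEK in DMSO (grey) and BCI (blue) at 4 h and 48 h; bars are means and points the 2 libraries. At 4 h both BCI points of THBS1 and SRGN lie above both DMSO points. THBS1 is low at 48 h in both arms, and TUBB1 lies higher at 48 h than at 4 h in both.

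Of 24 megakaryocyte transcription factor genes, 11 fell and 1 rose under BCI at 4 h (median log2 -0.23), where 5.94% of all genes fell and 4.8% rose. The factor GATA2 was at -1.29, ZFPM1 at -0.91 and the erythroid factor KLF1 at -0.88, while MAFG, a small MAF partner of NF-E2, was at 1.22. Of 29 surface receptor genes, 5 fell and 4 rose, with GP5 at -1.47, the thromboxane receptor TBXA2R at -1.35, F2RL3 at -0.87 and F2RL2 at 0.63. Of 35 cytoskeletal genes, 8 fell and 2 rose (median -0.16), with TUBA4A at -0.53, TUBB6 at -0.50, VASP at -0.46 and LIMS1 at 0.51.

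Of 21 other cargo genes at 4 h of BCI, 3 fell and 1 rose, with TIMP3 at -0.83, ANGPT1 at -0.76 and APLP2 at 0.45. Of 32 biogenesis genes, 3 rose and 2 fell, with LYST at 0.89, VIPAS39 at 0.87, SNAP23 at 0.45 and RAB38 at -0.87. Of 27 signalling genes, 4 rose and 4 fell, with PDE5A at 1.01 and RASGRP2 at -0.61. At 48 h, 0 genes of any of these lists were called in edgeR, as over all genes, where 316 had an unadjusted p under 0.05 and DESeq2 and limma-voom also called 0. Summed megakaryocyte markers at 4 h ran from 2645 to 2786 CPM in DMSO and from 2518 to 2520 with BCI, and mast cell markers from 955.5 to 971.8 and from 776.7 to 827.3. Erythroid markers ran from 1999 to 2003 and from 2153 to 2353, and endothelial markers from 658.5 to 666.9 and from 584.5 to 622.3. Monocyte markers were at 27.6 to 28.5 CPM and 29.8 to 32.8, with FCN1 and CD163 at 0 in DMSO, and fibroblast markers at 0.373 to 0.921, with LUM at 0. The part of these shifts in the members' rises was not tested.

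Likeness of pattern was measured over the 20 libraries by Pearson's r of log2 CPM, with each table centred on its own mean. These values are a description only, since libraries share treatments and depth. PF4 and TREML1 were closest (r = 0.952), followed by PF4 and PPBP (0.936) and by PLEK and TUBB1 (0.931). THBS1 and PLEK were least alike (0.37), and SRGN ran with none above 0.669, its value with MMRN1. Among 14622 genes tested in all tables, the most alike to PF4 was IGF1R (0.966) and IGF1R was also among those most alike to TREML1 (0.96). ITGA6 was most alike to PPBP (0.936), ARHGAP21 to THBS1 (0.954), CNST to MMRN1 (0.948) and PDLIM5 to SRGN (0.888). CRACD and RIPOR2 were most alike to PLEK (0.972 each), and CD84 to TUBB1 (0.951).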

How the data were processed

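Total RNA of HEL cells was sequenced in 20 libraries of 10 groups of 2. Per the submitters' processing notes, bcl2fastq, STAR 2.5.1a, edgeR and GRCh38 were used. The 3 deposited tables hold unnormalised counts, 1 value for each gene and library. No source used here gives the counting program, strand setting or annotation release. Among counts from 1 to 20, 59.8% to 73.07% were even, and halved counts were therefore tried. Columns headed 24h in the BCI table were taken as 48 h, and untimed columns of the BI-D1870 table as 24 h, as the labels give them. Lines that repeated a gene (116, 116 and 130) were dropped.

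In R 4.3.3, edgeR 4.0.16 (filterByExpr, TMM, quasi-likelihood, all groups of a table, no replicate block) tested 21908, 21328 and 15924 genes in 10 comparisons. The SE of a log2 fold change is its size divided by the square root of the F statistic. CPM use TMM library sizes and RPKM the GENCODE 29 union exon length. Replicates differed by more than sampling noise. Code was tested on simulated data. Of simulated 1.5-fold changes, 4.48% were recovered in RuxP, 4.48% in FedP and 0% in FedP against RuxP. Of 2-fold changes, 41.8%, 38.8% and 37.3% were recovered in the same order. A member that did not pass in the persistent table may therefore still differ by such folds. Alternatives were DESeq2 1.42.0 and its size factors, limma-voom 3.58.1, no filter, a stricter one (group means all at 1 CPM or more, or some library at 10), halved counts, only the groups compared, a replicate block, and each library left out.

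Members and lists were chosen with earlier results of these data known, so no p was adjusted over a list. Named list genes are up to 4 called genes of largest change with a mean of at least 4 CPM, and the text names some of these. For likeness, the 2 closest genes were found from log2 CPM with a prior count of 2. Motifs were searched on both strands.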

Additional observations from a re-analysis of the deposited data

Results flagged for a closer look

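The response of THBS1 to BCI differed between 48 h and 4 h, by -1.02 on the log2 scale (SE 0.168, edgeR adjusted p = 0.014). BCI libraries stood at 59.4 and 49.9 CPM against 27.5 and 31.6 in DMSO at 4 h, and at 6.88 and 7.5 against 7.85 and 7.87 at 48 h. The result was picked out because the test of the difference between the times itself passed. Groups of 2 libraries are too small for a check of single libraries that stand apart.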

How the results depend on the processing

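Of the values of single members recomputed under alternatives, 543 kept direction and side of the threshold, 37 no longer passed, 22 newly passed and 3 changed sign. Those 3, all without DMSO 48 h replicate 2, were MMRN1 in the BCI time difference (0.14) and in DMSO 48 h against 4 h (-0.27), and PF4 in the latter (-0.14). Without DMSO 48 h replicate 1 the same 3 were -0.99, 0.86 and 0.95. Members called under BCI at 4 h numbered 2, and 4 with no low-count filter, 4 with only the groups compared, and 1 with any 1 library left out. For the time difference 1 was called, 3 with no filter, 2 in DESeq2, and 0 to 2 with a library left out. For DMSO 48 h against 4 h it was 3, 6 with no filter, and 2 to 5 with a library left out. In RuxP and in FedP 7 were called, 3 to 8 with a library left out, and 5 in RuxP and 6 in FedP with only the groups compared. Between FedP and RuxP 0 were called, and 1 each with no filter, in DESeq2, and with only the groups compared. The counts under BI-D1870 (8), both compounds (7) and BCI at 48 h (0) stayed within 1.5 times under the alternatives run. Where 1 library of a group was left, it was taken to vary like the other groups. The cause of these shifts was not tested.

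With replicate numbers as a block, 5 members passed in RuxP and 5 in FedP. MMRN1 (adjusted p = 0.11) and PLEK (0.087) were lost in RuxP, and PLEK (0.13) and TREML1 (0.051) in FedP. Other counts were unchanged. Deviations of same-numbered libraries correlated at 0.316 between DMSO and BCI at 48 h and at -0.222 to 0.119 between other groups of a table, and no source says that the numbers mark a shared origin. Over all genes, calls under BCI at 4 h went from 2354 to 5691 with only the groups compared and to 574 to 730 with a library left out. The time difference went from 757 to 1658 with no filter, 1427 in DESeq2, 1166 with the block and 98 to 1741 with a library left out. DMSO over time went from 5837 to as few as 2576. BCI on top of BI-D1870 went from 1004 to 358 to 517. RuxP went from 1026 to 1836 (no filter), 2469 (DESeq2), 324 (block), 419 (only the groups compared) and 165 to 4316. FedP went from 1055 to 1818, 2560, 272, 568 and 99 to 5380 in the same order. FedP against RuxP went from 222 to 2886, 3605, 0, 5783 and 0, and 445 in limma-voom, and BCI at 48 h from 0 to 27 with no filter. For the time difference a fit of only the groups compared is the full fit and was not run. Counts of 2 to 27 limit VWF.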
